A study of Mus musculus with 9 samples.

Results

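The 34 genes described here encode the chaperones and folding enzymes of the endoplasmic reticulum (ER), the sensors and transcription factors of the unfolded protein response, genes that these factors are known to control, and parts of the channel through which new proteins enter the ER. They were taken by gene symbol from a table of 31274 entries made by RNA-Seq of the mouse uterus, and each of the 34 symbols was found. They fall into 8 chaperones and folding enzymes, 11 targets of the transcription factors XBP1 and ATF6, 5 targets of ATF4, 7 sensors and transcription factors, and 3 genes of the translocon. RNA came from the whole uterus of C57BL/6 mice on day 4.5 of pseudopregnancy, a state that mating with a vasectomized male brings about without embryos. The 4 controls were *Wnk1f/f* mice, in which loxP sites lie on both sides of exon 2 of *Wnk1*. The 5 *Wnk1d/d* mice had the same floxed alleles and in addition PGR-Cre, a Cre recombinase driven by the progesterone receptor gene, which takes exon 2 out in cells that have made this receptor. Immune and endothelial cells do not make it and keep *Wnk1*, and the driver also recombines in the ovary and the pituitary. Females were virgins aged 6 to 10 weeks by the procedure that the study describes for its matings. Each mouse gave 1 library, and the comparison asks which genes differ when the kinase WNK1 is lost from the uterus at the time of receptivity.

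Proteins that will be secreted or placed in membranes enter the ER through the SEC61 channel and fold there with the help of chaperones such as BiP (*Hspa5*), calnexin and calreticulin and of protein disulfide isomerases. When unfolded proteins build up, the sensor IRE1 (*Ern1*) splices the mRNA of *Xbp1*, ATF6 moves to the Golgi and is cut to release a transcription factor, and PERK (*Eif2ak3*) phosphorylates a translation factor, which lowers most translation and raises that of ATF4. XBP1 and ATF6 switch on chaperones and the machinery that clears misfolded proteins, while ATF4 switches on genes of amino acid supply and, through CHOP (*Ddit3*), of cell death; the secretory glands of the uterus and its collagen-producing stroma and muscle make steady use of this system.

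Expression was given as FPKM, the sequenced fragments of a gene divided by the length of its exons and by the fragments of the library, so levels can be compared between genes. The 14728 genes with a mean above 1 FPKM in at least 1 genotype were compared with limma on log2(FPKM + 1), and a gene is called higher or lower here when its Benjamini-Hochberg adjusted p over all of them is under 0.05. All 34 members had a mean above 1 FPKM in both genotypes. Fold changes are of *Wnk1d/d* over *Wnk1f/f* on the log2(FPKM + 1) scale, which understates the change of genes with low FPKM, and SE is their standard error.

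*Wnk1* itself (chr6:119923969-120038672, minus strand, in GENCODE release M21 on mm10) was at 44.9, 43.4, 47.3 and 45.5 FPKM in *Wnk1f/f* replicates 1 to 4 and at 33.9, 29.9, 31.00, 30.2 and 31.3 FPKM in *Wnk1d/d* replicates 1 to 5. The library labels and the targeted gene therefore go together, with every *Wnk1d/d* library below every control (log2 fold change -0.52, SE 0.06, limma adjusted p = 0.00167). FPKM of the whole gene also counts exons outside the deletion. Markers of the uterus were present in all libraries, although 3 of 6 (*Hoxa10*, *Hoxa11* and *Hand2*) were lower in *Wnk1d/d*, with 625, 596, 585 and 638 FPKM summed over 6 genes in the controls and 403, 504, 397, 471 and 464 in *Wnk1d/d*, and *Hoxa10* was the most abundant of them.

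Replicate 4 of each genotype stood apart. In *Wnk1f/f* replicate 4, 6 transcripts of the liver summed to 158 FPKM, against 8.29 to 10.6 in the other controls, with albumin (*Alb*) at 77.7 FPKM. In *Wnk1d/d* replicate 4, 1 short entry held 70.3% of the summed FPKM, while the median log2(FPKM + 1) of the tested genes was 3.79 there and 3.80 to 3.82 in the other 8 libraries. Counts of members are given below with and without them.

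In *Wnk1d/d* uteri 10 of the 34 members were higher, which is 29.4% of them against 11.1% of all genes tested, and 1 was lower, which is 2.94% against 10.99%. The 10 were *Calr*, *Canx*, *P4hb*, *Dnajb11*, *Hyou1*, *Asns*, *Creb3l1*, *Sec61a1*, *Sec61b* and *Ssr1*, and the 1 lower gene was *Herpud1*. Most of the differences were small. The ratio of mean FPKM of the 10 ran from 1.18 in *P4hb* to 1.44 in *Sec61b* and 1.89 in *Creb3l1*, and *Creb3l1* alone passed the fold criterion of 1.5 that the study set for a differentially expressed gene (DEG); DEGs in either direction made up 10.3% of all genes tested. The median log2 fold change was 0.12 over the members and 0.00 over all genes tested, and 26 of the 34 members were above 0 (22 with quantile normalization, which put *Hsp90b1*, *Pdia4*, *Pdia6* and *Sdf2l1* below 0), against 7441 of the 14728 genes. With quantile normalization the medians were 0.07 and -0.01. The count of higher members was then 5, with 1514 of all genes tested higher. Without a filter it was 4, with 1422 of 21949 genes higher.

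Of the 34 members, 7 had every *Wnk1d/d* library above every control, against 9.27% of all genes tested, and 0 had every *Wnk1d/d* library below, against 10.6%. The count of higher members was 3, 4, 7 and 3 without *Wnk1f/f* replicates 1, 2, 3 and 4 and 5, 9, 3, 4 and 4 without *Wnk1d/d* replicates 1, 2, 3, 4 and 5, and the count of lower members was 0 or 1. Over all genes tested the higher count moved too, to 1176, 1220, 1391 and 830 without *Wnk1f/f* replicates 1 to 4 and 1199, 2190, 861, 1109 and 999 without *Wnk1d/d* replicates 1 to 5, while the median log2 fold change of the members stayed between 0.09 and 0.15. Without *Wnk1f/f* replicate 4 and *Wnk1d/d* replicate 4 together, 1 member was higher and 0 were lower, and of all genes tested 534 were then higher and 608 lower, against 1630 and 1619 with all libraries. In bulk tissue, fewer cells of a type and less RNA per cell cannot be told apart.

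**Figure D1:**
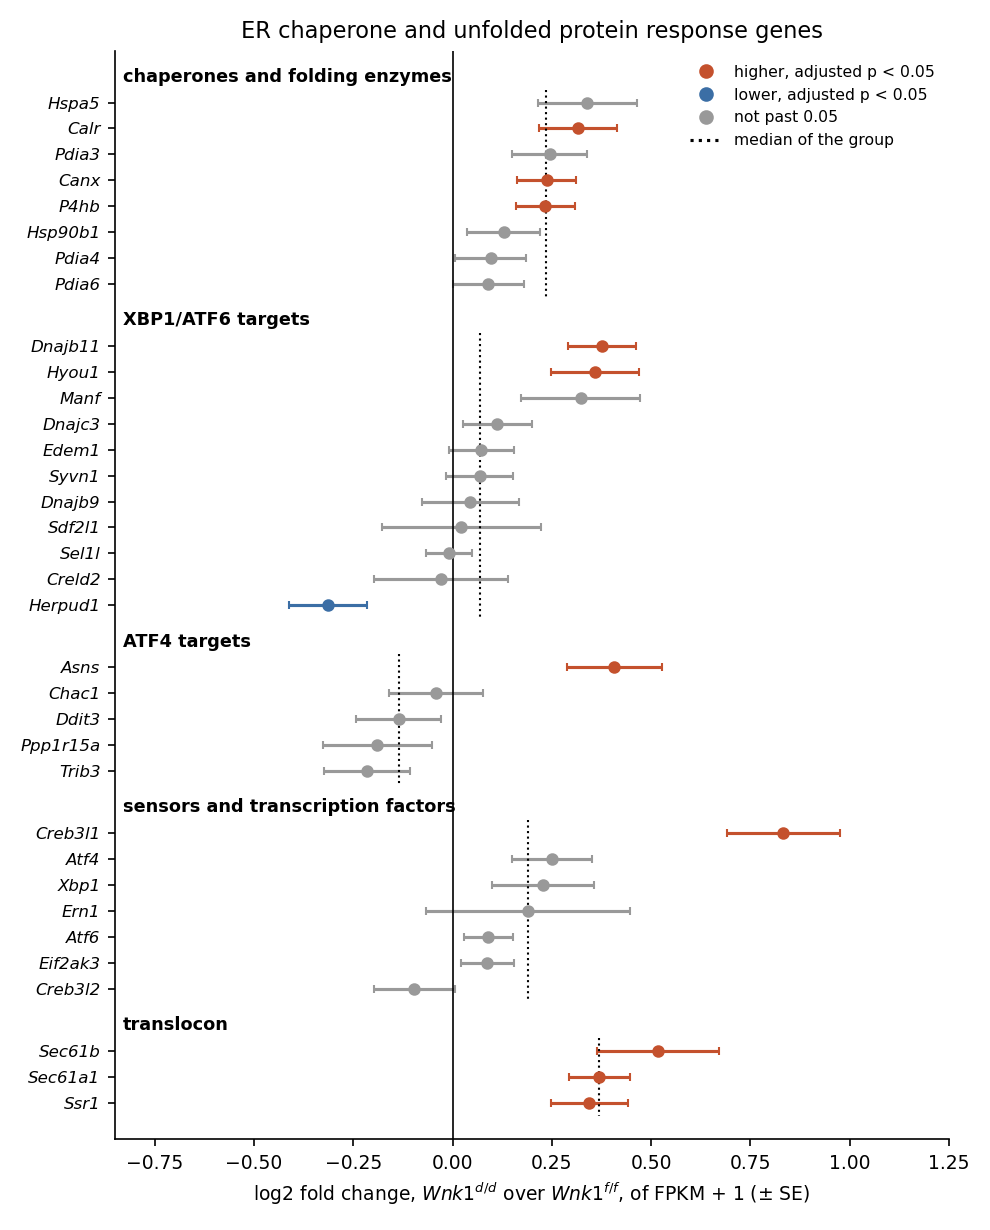
Log2 fold change of FPKM + 1, *Wnk1d/d* over *Wnk1f/f*, of the 34 members by functional group, with its standard error (5 and 4 libraries); red and blue points have a limma adjusted p under 0.05 and dotted lines are group medians. The 3 translocon genes and all 8 chaperones lie above 0 (with quantile normalization *Hsp90b1*, *Pdia4* and *Pdia6* lay below it), the 11 XBP1/ATF6 targets lie on both sides with a median of 0.07, and 4 of the 5 ATF4 targets lie below 0.

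All 8 chaperones and folding enzymes had a higher mean in *Wnk1d/d*, although with quantile normalization *Hsp90b1*, *Pdia4* and *Pdia6* were below 0. Called were 3 of them, *Calr*, *Canx* and *P4hb*, 37.5% against 11.1% of all genes tested, and the median log2 fold change of the 8 was 0.24. Calreticulin (*Calr*, chr8:84841850-84846934, minus strand), a calcium-binding lectin chaperone, was at 357, 334, 346 and 290.1 FPKM in the controls and at 402, 413, 471, 423 and 359.8 FPKM in *Wnk1d/d* replicates 1 to 5. The lowest *Wnk1d/d* library, replicate 5, was just above the highest control, and replicate 3 was the highest of all (log2 fold change 0.32, SE 0.10, limma adjusted p = 0.0450; exact two-sided permutation p = 0.0159). Its membrane-bound relative calnexin (*Canx*, chr11:50293961-50325673, minus strand) was at 84.7, 73.3, 91.9 and 78.96 FPKM in the controls and at 98.04, 92.5, 103, 96.7 and 93.97 FPKM in *Wnk1d/d*. The genotypes were separate, but by less than 1 FPKM between control replicate 3 and *Wnk1d/d* replicate 2 (log2 fold change 0.24, SE 0.07, limma adjusted p = 0.0470; exact p = 0.00794, the smallest that 4 against 5 libraries can give). *P4hb* (chr11:120560298-120573253, minus strand), which encodes protein disulfide isomerase and was the most abundant member, was at 377, 363, 371 and 343 FPKM and at 416, 441, 465, 421 and 397 FPKM in the same order of libraries. It too did not overlap between genotypes (log2 fold change 0.23, SE 0.07, limma adjusted p = 0.0484; exact p = 0.0159). *Calr*, *Canx* and *P4hb* lost their call in 8, 7 and 9 of the 9 leave-one-out fits (1 library at a time was omitted), with highest adjusted p of 0.113, 0.113 and 0.114, in each case without *Wnk1f/f* replicate 4. Over all 20 alternatives they were called in 7, 7 and 4, with highest adjusted p of 0.322, 0.288 and 0.751.

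BiP (*Hspa5*, chr2:34771970-34777547, plus strand), the ER member of the HSP70 family and the usual readout of the unfolded protein response, was at 237, 249.5, 318 and 259 FPKM in the controls and at 294, 306, 419, 342 and 326 FPKM in *Wnk1d/d*. The groups overlapped, since control replicate 3 was above *Wnk1d/d* replicates 1 and 2, and *Wnk1d/d* replicate 3 was well above the rest. *Hspa5* was not called (log2 fold change 0.34, SE 0.12, limma adjusted p = 0.0758; exact p = 0.0476), although its fold change was the largest of the 8. Without *Wnk1f/f* replicate 3 its adjusted p was 0.0414, and over all alternatives it ran from 0.0414 to 0.349. GRP94 (*Hsp90b1*), the ER form of HSP90, had 336 ± 33.4 FPKM in *Wnk1f/f* and 367 ± 28.1 FPKM in *Wnk1d/d* (SD; limma adjusted p = 0.326), and 15.7% of its exon bases are shared with other annotated genes, which unstranded reads cannot always tell apart. The disulfide isomerases *Pdia3*, *Pdia4* and *Pdia6* had log2 fold changes of 0.25, 0.10 and 0.09 and adjusted p of 0.0877, 0.455 and 0.485. With quantile normalization 0 of the 8 were called, and their median was 0.06.

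The summed FPKM of the 8 chaperones and folding enzymes was 2020.2, 1896, 2125 and 1822 in *Wnk1f/f* replicates 1 to 4 and 2246, 2227, 2600.1, 2311 and 2124 in *Wnk1d/d* replicates 1 to 5. The lowest *Wnk1d/d* sum, in replicate 5, was slightly below the highest control sum, in replicate 3. The mean sum was 1.17 times that of the controls.

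**Figure D2:**
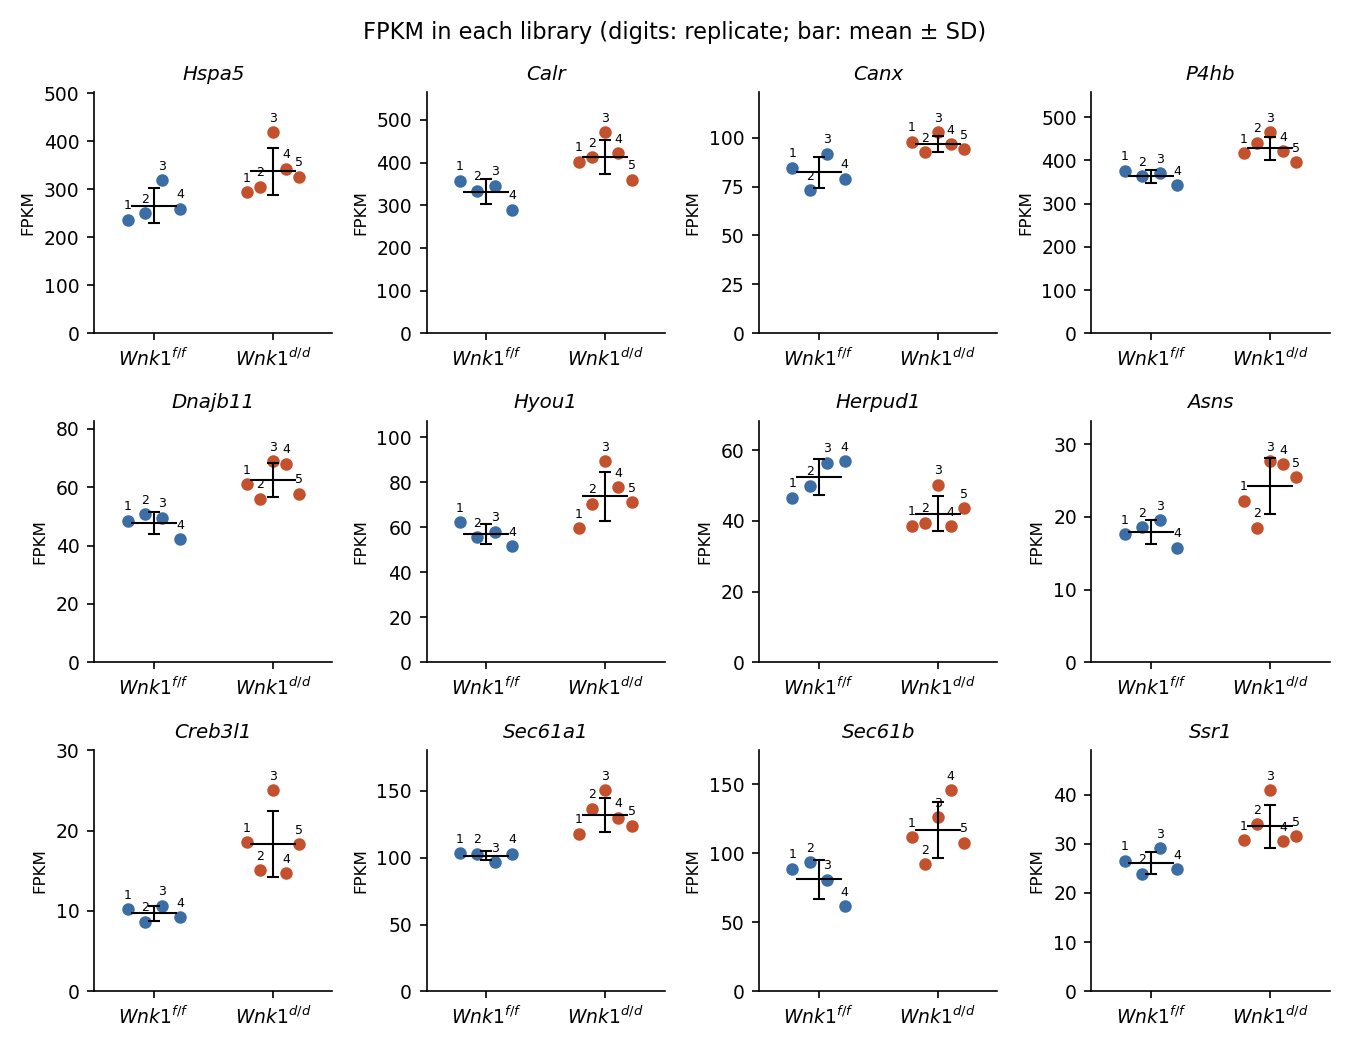
FPKM in each library of *Hspa5* and of the 11 members with a limma adjusted p under 0.05; points are libraries with their replicate digit, and bars are the mean ± SD of 4 *Wnk1f/f* and 5 *Wnk1d/d* libraries. *Wnk1d/d* replicate 3 is the highest library for all but *Sec61b* and *Herpud1*, and *Herpud1* is the gene with the lower mean in *Wnk1d/d*.

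Among the 11 targets of XBP1 and ATF6, 2 were higher (18.2%), *Dnajb11* and *Hyou1*, and 1 was lower (9.09%), *Herpud1*, against 11.1% and 10.99% of all genes tested. These genes encode ER co-chaperones, secreted or luminal folding factors and the machinery of ER-associated degradation (ERAD), which returns misfolded proteins to the cytosol. Each member was counted in 1 group only, and the chaperones, which XBP1 and ATF6 also switch on, were counted apart. The median log2 fold change of the 11 was 0.07. The median was 0.02 without *Wnk1d/d* replicate 3, 0.01 with quantile normalization and 0.13 without replicate 4 of both genotypes. *Dnajb11* (chr16:22857845-22879634, plus strand), whose product ERdj3 is a co-chaperone of BiP, was at 48.5, 50.8, 49.5 and 42.3 FPKM in the controls and at 61.1, 56.00, 68.9, 68.00 and 57.8 FPKM in *Wnk1d/d*. Every *Wnk1d/d* library was above every control (log2 fold change 0.38, SE 0.09, limma adjusted p = 0.0158; exact p = 0.00794), and the call was lost in 0 of the 9 leave-one-out fits (highest adjusted p = 0.0439). *Hyou1* (chr9:44379490-44392369, plus strand), a large ER relative of HSP70 that exchanges the nucleotide of BiP, was at 62.3, 55.6, 58.04 and 51.5 FPKM and at 59.7, 70.5, 89.3, 77.9 and 71.1 FPKM. Only *Wnk1d/d* replicate 1 fell among the controls (log2 fold change 0.36, SE 0.11, limma adjusted p = 0.0443; exact p = 0.0238), and the call was lost in 7 of the 9 fits (highest adjusted p = 0.116). *Herpud1* (chr8:94386438-94395377, plus strand), a membrane protein of the ERAD complex that is among the most strongly induced genes of the unfolded protein response, was at 46.5, 49.9, 56.4 and 56.8 FPKM in the controls and at 38.6, 39.5, 50.2, 38.5 and 43.5 FPKM in *Wnk1d/d*. It moved against the other called members, and the overlap came from *Wnk1d/d* replicate 3, which exceeded control replicates 1 and 2 (log2 fold change -0.31, SE 0.10, limma adjusted p = 0.0464; exact p = 0.0397). *Herpud1* lost its call in 7 of the 9 fits (highest adjusted p = 0.120), and these 3 highest values all came without *Wnk1f/f* replicate 4. Over all 20 alternatives *Dnajb11*, *Hyou1* and *Herpud1* were called in 18, 9 and 8, with highest adjusted p of 0.101, 0.185 and 0.195; *Dnajb11* was at 0.0771 without replicate 4 of both genotypes.

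The other 8 targets were not called. *Manf*, a secreted ER stress protein, had 68.2 ± 9.20 FPKM in *Wnk1f/f* and 86.3 ± 16.8 FPKM in *Wnk1d/d* (adjusted p = 0.143), with *Wnk1d/d* replicates 3 and 4 above 100 FPKM and the others within or near the control range; 9.25% of its exon bases are shared with other genes. The ERAD genes *Syvn1* (the ubiquitin ligase HRD1), *Sel1l* (its partner) and *Edem1* (a mannosidase-like lectin) had log2 fold changes of 0.07, -0.01 and 0.07. Their SEs were 0.08, 0.06 and 0.08. For the co-chaperones *Dnajb9* and *Dnajc3* the values were 0.05 and 0.11. *Sdf2l1* and *Creld2*, which are sensitive markers of ATF6 and XBP1 activity in many cells, spread widely within *Wnk1d/d*, from 22.6 to 51.3 FPKM and from 47.6 to 79.2 FPKM. In *Wnk1f/f* they lay between 29.5 and 35.6 FPKM and between 49.5 and 71.1 FPKM, inside the *Wnk1d/d* range in both cases.

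Promoters were read for elements of this response, and several members are known for such elements, so their share among the members is partly set by how the members were chosen. The RefSeq promoter table (build GRCm38.p6, the patched form of mm10; 300 bases, 250 before and 50 after each start site) held 29 of the 34 members, without *Creb3l1*, *Sec61a1*, *Hyou1*, *Manf* and *Atf6*. The ER stress response element (ERSE), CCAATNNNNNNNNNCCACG, is known to be bound by NF-Y and by ATF6 or XBP1, and ERSE-II (ATTGG, any 1 base, CCACG) shares its last 5 bases. On either strand, ERSE was found in 8 of the 29 member promoters, 27.6%, against 39 of all 32851, 0.119%, and ERSE-II in 2, 6.90%, against 12, 0.0365%. The 8 were *Hspa5*, *Calr*, *Hsp90b1*, *Canx*, *Pdia6*, *Dnajc3*, *Creld2* and *Syvn1*, and the 2 were *Herpud1* and *Dnajb11*. The stretches below show the element in 3 members that were called and 3 that were not, 5′ to 3′ on the strand of the gene, with the element in capitals and 30 bases on each side.
Calr: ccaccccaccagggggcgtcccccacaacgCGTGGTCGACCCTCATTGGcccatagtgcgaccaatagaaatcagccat
Canx: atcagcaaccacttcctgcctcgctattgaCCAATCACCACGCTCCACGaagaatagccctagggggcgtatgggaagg
Herpud1: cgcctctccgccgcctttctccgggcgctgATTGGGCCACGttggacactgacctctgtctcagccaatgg
Hspa5: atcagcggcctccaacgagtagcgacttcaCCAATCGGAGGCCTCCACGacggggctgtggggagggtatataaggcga
Hsp90b1: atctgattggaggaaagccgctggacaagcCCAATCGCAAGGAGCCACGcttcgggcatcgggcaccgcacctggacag
Pdia6: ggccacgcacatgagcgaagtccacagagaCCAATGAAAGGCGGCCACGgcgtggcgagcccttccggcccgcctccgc
The first 3 lie at chr8:84847045-84847123 on the minus strand, chr11:50325770-50325848 on the minus strand and chr8:94386347-94386417 on the plus strand, and the next 3 at chr2:34771995-34772073 on the plus strand, chr10:86705608-86705686 on the minus strand and chr12:17266461-17266539 on the plus strand. All 6 are upstream of the start site in the RefSeq table, and for *Hspa5* GENCODE places the gene start farther upstream. In *Calr* the element reads in the opposite direction, so its capitals begin with CGTGG. *Herpud1* carries ERSE-II, and the other 5 carry ERSE. *Hsp90b1* also holds another ERSE, not shown, which reads in the opposite direction at bases -107 to -89 relative to the start site. The capitals begin 162, 145, 52, 65, 212 and 98 bases before the start site in the order shown.

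Members that hold an element did not share 1 direction. Of the 10 members with ERSE or ERSE-II, 3 were higher (*Calr*, *Canx* and *Dnajb11*), 1 was lower (*Herpud1*) and the median log2 fold change was 0.12. Of the 19 members whose promoter window holds neither, 4 were higher, 0 were lower and the median was 0.09. Among all tested genes with an ERSE in the table, 19 in number, 2 were higher and 4 lower, beside 11.1% and 10.99% of all genes tested; the 4 lower genes, *Derl3*, *Adcy3*, *Pan2* and *Zfp57*, are not members, and the 2 higher ones are members. Of 8 tested genes with ERSE-II, 2 were higher (the member *Dnajb11*, and *Rcl1*) and 1 was lower (*Herpud1*). A UPRE core, TGACGTGG, and a CARE, TGATGCAAT, which are known sites of XBP1 and of ATF4, were in 0 member windows and in 222 and 63 of all promoters. Of 109 tested genes with a UPRE core 21 were higher and 12 lower, and of 16 with a CARE 3 were higher and 1 lower. A match says only that these letters are present, and the absence of a match only that they are not in this window.

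The 5 targets of ATF4 were the group with the lowest median, -0.14, and 1 of them was called, *Asns*, which was higher (1 of 5, against 11.1% of all genes tested). Their median was -0.07 without *Wnk1f/f* replicate 4 or without replicate 4 of both genotypes, and -0.20 without *Wnk1f/f* replicate 3. *Asns* (chr6:7675169-7693254, minus strand), asparagine synthetase and a classic gene of the amino acid response, was at 17.6, 18.6, 19.6 and 15.8 FPKM in the controls and at 22.2, 18.5, 27.7, 27.3 and 25.4 FPKM in *Wnk1d/d*. *Wnk1d/d* replicate 2 lay within the control range and the other 4 were above it (log2 fold change 0.41, SE 0.12, limma adjusted p = 0.0384; exact p = 0.0317). The call was lost in 7 of the 9 leave-one-out fits (highest adjusted p = 0.104, without *Wnk1f/f* replicate 4), and it was made in 10 of all 20 alternatives (highest adjusted p = 0.173). CHOP (*Ddit3*, chr10:127290774-127296288, plus strand), a transcription factor that promotes cell death in lasting ER stress, was at 25.3, 32.8, 23.6 and 32.7 FPKM and at 23.6, 25.8, 28.2, 26.00 and 24.9 FPKM. All *Wnk1d/d* libraries were inside the range of the controls, where replicates 2 and 4 were above replicates 1 and 3 (log2 fold change -0.14, SE 0.11, limma adjusted p = 0.376). *Ddit3* shares 4.73% of its exon bases with other genes. *Trib3*, a pseudokinase induced by CHOP, had 5.02 ± 0.618 FPKM in *Wnk1f/f* and 4.19 ± 0.641 FPKM in *Wnk1d/d* (adjusted p = 0.172), and *Ppp1r15a* (GADD34), which brings a phosphatase to the PERK substrate, had 29.1 ± 4.48 and 25.4 ± 4.45 FPKM (adjusted p = 0.335). *Chac1*, an enzyme that breaks down glutathione and is strongly induced by ATF4 and CHOP, stayed near the filter, from 1.08 to 1.96 FPKM in the controls and from 1.19 to 1.40 FPKM in *Wnk1d/d*.

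Of the 7 sensors and transcription factors, 1 was called higher (14.3%, against 11.1% of all genes tested), and it was the member with the largest fold change of the 34. *Creb3l1* (chr2:91982328-92024502, minus strand) encodes OASIS, an ER-anchored transcription factor of the CREB3 family that is released by cleavage in the Golgi and is known for switching on type I collagen genes and secretory pathway genes. It was at 10.2, 8.68, 10.7 and 9.24 FPKM in *Wnk1f/f* and at 18.5, 15.1, 25.01, 14.7 and 18.3 FPKM in *Wnk1d/d*. The lowest *Wnk1d/d* library was 14.7 FPKM and the highest control 10.7 FPKM (log2 fold change 0.83, SE 0.14, limma adjusted p = 0.00658; exact p = 0.00794). *Creb3l1* was called in 20 of the 20 alternative fits (log2 fold change 0.72 to 0.90, adjusted p 0.00370 to 0.0442). No other member was called in all of them, and leaving out 1 library gave at most 0.0212. Its relative *Creb3l2* (BBF2H7), known for control of secretion in cartilage, had a log2 fold change of -0.10 (adjusted p = 0.509).

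*Xbp1*, the gene of the factor that IRE1 splices, was at 219.8, 196, 229 and 152 FPKM in the controls and at 230.4, 217, 215, 274 and 223 FPKM in *Wnk1d/d*. Control replicate 4 was low and *Wnk1d/d* replicate 4 high, while the other 7 libraries lay between 196 and 230.4 FPKM (log2 fold change 0.23, SE 0.13, limma adjusted p = 0.215). Without both libraries its log2 fold change was 0.04. *Atf4*, the gene of the factor whose translation PERK raises, was at 175, 182, 150.0 and 153 FPKM and at 191, 164, 208, 223 and 196 FPKM. *Wnk1d/d* replicate 2 lay inside the control range and the other 4 above it (log2 fold change 0.25, SE 0.10, limma adjusted p = 0.102), and without that replicate the adjusted p was 0.0305 (range over the alternatives 0.0305 to 0.377).

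The 3 sensors themselves were not called. *Atf6* was at 10.7, 10.2, 10.7 and 11.7 FPKM in the controls and at 10.7, 12.1, 11.9, 11.6 and 11.5 FPKM in *Wnk1d/d*, with log2 fold change 0.09 and adjusted p = 0.295. *Eif2ak3* (PERK) was at 9.14, 8.28, 8.76 and 9.41 FPKM and at 9.53, 9.80, 10.3, 8.61 and 9.34 FPKM, with log2 fold change 0.09 and adjusted p = 0.359; 8.05% of its exon bases are shared with another gene on the other strand. Both sensors had overlapping groups and a spread within each genotype under 1 FPKM (SD). *Ern1* (IRE1) was at 17.1, 9.88, 12.3 and 19.99 FPKM and at 13.4, 29.3, 15.4, 13.5 and 14.8 FPKM, and it was the most variable of the 3. *Wnk1d/d* replicate 2 was far above the other 4 *Wnk1d/d* libraries, and without it the log2 fold change went from 0.19 to -0.01. Gene-level FPKM does not show the splicing of *Xbp1*, the cleavage of ATF6 or CREB3L1, or the phosphorylation of PERK.

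All 3 translocon genes were called higher, against 11.1% of all genes tested, and their median log2 fold change, 0.37, was the highest of the 5 groups; with quantile normalization 2 were called, the median was 0.31, and *Sec61a1* was at 0.24 (adjusted p = 0.0864; range over the alternatives 0.00903 to 0.0991). *Sec61a1* (chr6:88503579-88518905, minus strand), the pore of the channel, was at 103, 103, 96.6 and 103 FPKM in the controls and at 118, 137, 150.5, 129.9 and 124 FPKM in *Wnk1d/d*. The controls were within 7 FPKM of each other and every *Wnk1d/d* library was above them (log2 fold change 0.37, SE 0.08, limma adjusted p = 0.0120; exact p = 0.00794). Of its exon bases, 8.16% are shared with a gene on the other strand. *Sec61b* (chr4:47474658-47483242, plus strand), a small subunit of the channel, was at 88.7, 93.6, 80.7 and 61.5 FPKM and at 111, 92.2, 126.2, 146 and 107 FPKM. Control replicate 4 was the lowest, *Wnk1d/d* replicate 4 the highest, and *Wnk1d/d* replicate 2 lay within the control range (log2 fold change 0.52, SE 0.15, limma adjusted p = 0.0395; exact p = 0.0238). *Ssr1* (chr13:37966605-37994217, minus strand), a subunit of the translocon-associated protein complex (TRAP), was at 26.6, 23.9, 29.1 and 24.9 FPKM and at 30.8, 33.98, 40.9, 30.5 and 31.5 FPKM. Its groups were separate (log2 fold change 0.34, SE 0.10, limma adjusted p = 0.0334; exact p = 0.00794). *Sec61a1*, *Sec61b* and *Ssr1* lost their call in 0, 7 and 5 of the 9 leave-one-out fits, with highest adjusted p of 0.0303, 0.0946 and 0.0863, again without *Wnk1f/f* replicate 4. Over all 20 alternatives they were called in 17, 10 and 13, with highest adjusted p of 0.0991, 0.180 and 0.0967.

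**Figure D3:**
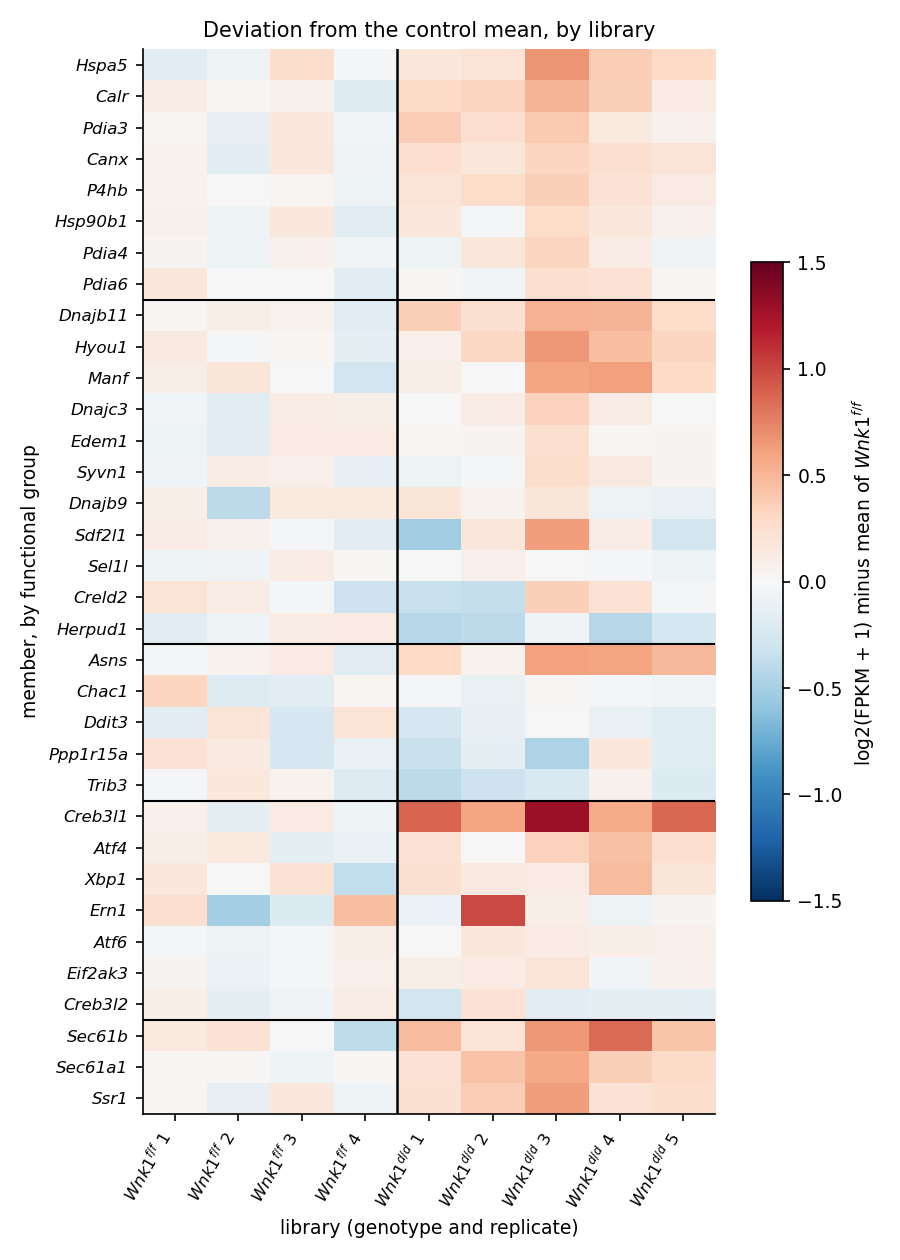
Deviation of log2(FPKM + 1) from the mean of the 4 *Wnk1f/f* libraries for each of the 34 members (rows, by functional group) in each of the 9 libraries (columns); red is above and blue below the control mean. *Wnk1d/d* replicate 3 is red in most rows, and *Creb3l1* and the translocon genes are red in all 5 *Wnk1d/d* libraries.

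The *Wnk1d/d* mice differed among themselves. *Wnk1d/d* replicate 3 had the highest FPKM of the 5 *Wnk1d/d* libraries in 24 of the 34 members, 70.6%, and in all 8 chaperones and folding enzymes, against 17.6% of all genes tested. Replicates 4 and 2 were the highest in 6 and 4 members, and replicates 1 and 5 in 0. The median deviation of the members from their control mean was 0.08, 0.13, 0.32, 0.16 and 0.06 on the log2 scale in *Wnk1d/d* replicates 1 to 5, and over all genes tested it was 0.01, 0.00, 0.00, 0.00 and 0.00. For the translocon genes it was 0.23, 0.37, 0.63, 0.35 and 0.29, above 0 in every mouse. For the ATF4 targets it was -0.25, -0.13, 0.00, 0.06 and -0.18. In the controls, replicate 4 had the lowest FPKM of the 4 in 14 members, 41.2%, against 31.3% of all genes tested, and replicate 2 in 13, 38.2%, against 25.4%.

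Genes of the same pathway outside the 34 were read from 6 further lists with 115 genes, of which 112 passed the filter, 3 of them (*Gdf15*, *Slc7a11* and *Slc7a3*) in 1 genotype only. In the fit without a filter 27 of the 115 were higher and 6 lower, against 6.48% and 7.23% of the 21949 genes in that fit. Of the 109 genes above 1 FPKM in both genotypes, 33 were higher and 6 lower in the filtered fit, where 11.1% and 10.99% of all genes tested were. With 1 library omitted the higher count ran from 13 (without *Wnk1f/f* replicate 4) to 40 (without *Wnk1d/d* replicate 2) and the lower count from 3 to 6, and without replicate 4 of both genotypes they were 5 and 1. Of 23 genes of protein translocation and N-glycosylation, 11 were higher (47.8%, against 11.1% of all genes tested) and 0 lower, with a median log2 fold change of 0.25. The 11 include *Srprb*, a subunit of the receptor for the signal recognition particle, with 23.98 ± 1.26 FPKM in *Wnk1f/f* and 34.6 ± 3.88 FPKM in *Wnk1d/d* (log2 fold change 0.51, SE 0.08, limma adjusted p = 0.00574), *Ostc*, a subunit of the oligosaccharyltransferase that attaches glycans, with a log2 fold change of 0.45 (adjusted p = 0.0193), and the TRAP subunit *Ssr2*, with 0.36 (adjusted p = 0.0267). With quantile normalization 4 of the 23 were higher and 1 lower, and with 1 library omitted 4 (without *Wnk1f/f* replicate 4) to 12 (without *Wnk1d/d* replicate 2) were higher, and without replicate 4 of both genotypes 1 was. *Ssr2* was called in 13 of the 20 alternatives (highest limma adjusted p 0.163), and *Srprb* and *Ostc* in 19 and 17. Of 17 genes of transport between ER and Golgi, 7 were higher (41.2%) and 0 lower, with a median of 0.24. The higher count was 4 without *Wnk1d/d* replicate 3, 10 without *Wnk1d/d* replicate 2 and 2 without replicate 4 of both genotypes. *Sec13* and *Sec24d*, which form the coat of ER exit vesicles, had log2 fold changes of 0.56 (adjusted p = 0.0150) and 0.54 (adjusted p = 0.00691), and the KDEL receptor *Kdelr3*, which returns chaperones to the ER, had 0.45 (adjusted p = 0.0352). *Kdelr3* was called in 9 of the 20 alternatives (highest limma adjusted p 0.139), and *Sec13* and *Sec24d* in 18 and 19.

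Of 19 further folding enzymes 3 were higher (15.8%) and 2 lower (10.5%), and of 15 ERAD genes 2 were higher (13.3%) and 1 lower (6.67%), with medians of 0.17 and 0.10, beside 11.1% and 10.99% of all genes tested. The higher count of the folding enzymes was 1 in 7 of the 9 leave-one-out fits, and that of the ERAD genes was 0 in 7 of them. *Fkbp14*, a prolyl isomerase of collagen folding, had the largest increase of the folding enzymes (log2 fold change 0.57, SE 0.17, limma adjusted p = 0.0400), and *Uggt2*, which tags misfolded glycoproteins, and *Pdia5* were lower (log2 fold changes -0.38 and -0.33, adjusted p = 0.00837 and 0.0232). *Fkbp14* was called in 10 of the 20 alternatives (highest limma adjusted p 0.134), and *Uggt2* and *Pdia5* in 18 and 13. The ERAD gene *Derl3* fell most, from 15.9, 9.21, 8.54 and 18.3 FPKM in the controls to 3.05, 5.03, 5.01, 4.20 and 3.16 FPKM in *Wnk1d/d*. Its groups were apart (log2 fold change -1.41, SE 0.23, limma adjusted p = 0.00575), and an ERSE lies in its promoter. *Edem3* and *Vcp*, the ATPase that pulls proteins out of the ER, were higher, with log2 fold changes of 0.29 and 0.30 (adjusted p = 0.0444 and 0.0403). Each was called in 9 of the 20 alternatives.

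The 3 genes that passed the filter in 1 genotype only are among 28 genes known to depend on ATF4, so this list is given from the fit without a filter. There 8 of the 28 were higher and 1 was lower, beside 6.48% and 7.23% of all genes in that fit, with a median of 0.20, while the 5 members of the ATF4 group had a median of -0.14. Of the 24 above 1 FPKM in both genotypes 6 were higher, and with 1 library omitted 2 (without *Wnk1d/d* replicate 3) to 9 (without *Wnk1d/d* replicate 2) were. Without replicate 4 of both genotypes 2 of the 24 were higher and 0 lower. *Gdf15*, a secreted stress cytokine, was at 0.290, 0.360, 0.120 and 0.700 FPKM in the controls and at 2.76, 3.97, 2.65, 2.60 and 1.70 FPKM in *Wnk1d/d*. Its unfiltered limma adjusted p was 0.00489. *Stc2*, a secreted glycoprotein hormone, was at 10.8, 6.79, 7.33 and 10.4 and at 25.5, 28.9, 24.2, 17.00 and 21.2 FPKM. Its unfiltered limma adjusted p was 0.00607 (range over the alternatives 0.00176 to 0.0552). The cystine transporter *Slc7a11* was at 0.390, 0.540, 0.730 and 0.680 and at 3.75, 2.07, 2.03, 1.66 and 2.13 FPKM, with an unfiltered limma adjusted p of 0.00784. None of these 3 overlapped between genotypes, and *Gdf15* and *Slc7a11* were below 1 FPKM in every control. Filtered fits held *Gdf15* and *Slc7a11* through their *Wnk1d/d* level only, so no range over those fits is given for them. Among those fits the limma adjusted p of *Slc7a11* reached 0.0645.

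Of 11 further sensors, proteases and CREB3 family genes, 4 were higher (36.4%) and 2 lower (18.2%), against 11.1% and 10.99% of all genes tested, with a median of 0.00. Without *Wnk1f/f* replicate 4 the counts were 0 and 1, without *Wnk1d/d* replicate 3 they were 1 and 0, and without *Wnk1f/f* replicate 3 or *Wnk1d/d* replicate 4 they were 2 and 0. *Eif2s1*, which encodes the translation factor that PERK phosphorylates, and *Atf6b*, the relative of *Atf6*, had log2 fold changes of 0.40 and 0.33 (adjusted p = 0.0172 and 0.0220). *Eif2ak4* (GCN2), the kinase that reaches ATF4 when amino acids are short, was lower (log2 fold change -0.35, SE 0.09, limma adjusted p = 0.0244). *Eif2ak4* was called in 12 of the 20 alternatives (highest limma adjusted p 0.142), and *Eif2s1* and *Atf6b* in 17 and 16. The relatives *Ern2* and *Creb3l3* were below 1 FPKM in every library and did not pass the filter.

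For comparison, chaperones of other compartments were read in the same way. Of 10 cytosolic heat shock genes, 3 were higher (against 11.1% of all genes tested) and 0 lower, with a median of 0.25. These were the small heat shock protein *Hspb1* (log2 fold change 0.98, SE 0.20, limma adjusted p = 0.0117) and the inducible HSP70 genes *Hspa1b* and *Hspa1a* (log2 fold changes 0.91 and 0.63), which are near-identical copies, so their separate values are uncertain. The median of the 10 was 0.12 without *Wnk1d/d* replicate 3 and 0.15 without *Wnk1f/f* replicate 4. With quantile normalization or library weights 1 of the 10 was lower. Of 6 mitochondrial chaperones and proteases 0 were called by limma, 1 had an unadjusted p under 0.05, and the median was 0.22; 3 were called without *Wnk1d/d* replicate 2.

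**Figure D4:**
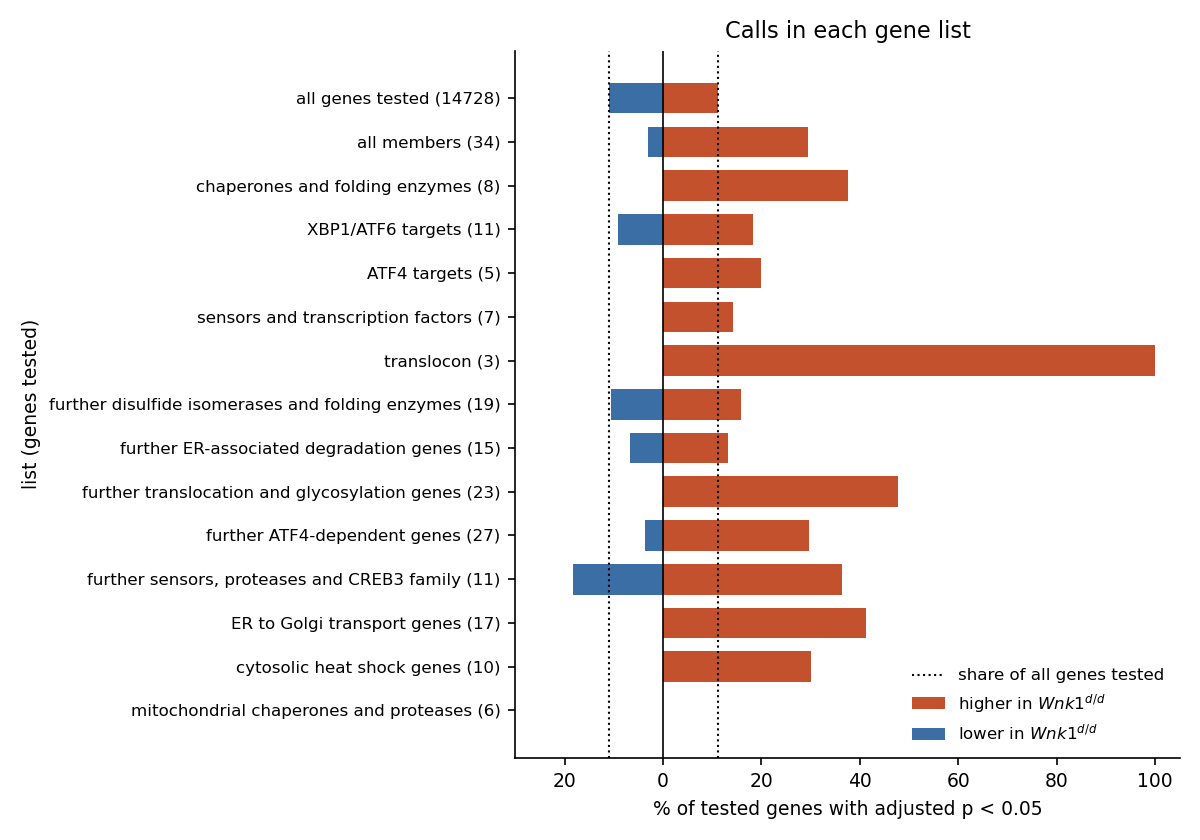
Percent of tested genes in each list with a limma adjusted p under 0.05 (x axis; higher in *Wnk1d/d* to the right, lower to the left), with the number of genes tested in brackets; dotted lines are the shares over all 14728 genes tested, 11.1% and 10.99%. Genes called lower appear on the left in 5 lists besides all members and all genes tested, and the other 8 lists have none; 2 of the ATF4-dependent genes on the right, *Gdf15* and *Slc7a11*, passed the filter in *Wnk1d/d* only.

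Markers of cell types moved with genotype, and their part in the results above was not tested. The 5 smooth muscle markers were all higher in *Wnk1d/d*, and their summed FPKM was 2787, 1757, 2339 and 1211 in the controls and 4412, 3485, 5391, 6489.8 and 6423 in *Wnk1d/d*, with *Actg2* the most abundant. No *Wnk1d/d* library overlapped the controls in this sum, and *Wnk1f/f* replicate 4, which was often the lowest control for members, had the lowest. *Wnk1d/d* replicate 3, which was highest for 24 members, was below replicates 4 and 5. Stromal markers went both ways: *Lum* and *Col1a2* were higher, *Vim* and *Pdgfra* were lower, the most abundant was *Vim* in *Wnk1f/f* and *Col1a2* in *Wnk1d/d*, and the sum of the 5 was 2155, 1801, 2069 and 2124 in the controls and 2206, 2236, 2277, 1858 and 2201 in *Wnk1d/d*. Gland markers summed to 10453, 7766, 6685 and 10459.9 FPKM in the controls and to 916, 2757, 2696, 2499 and 2808 FPKM in *Wnk1d/d*, where 3 of 5 were lower, and the most abundant was *Spink3* in *Wnk1f/f* and *Prss29* in *Wnk1d/d*. The gland transcription factors *Foxa2* and *Sox17* were the other 2, with log2 fold changes of 0.20 and 0.12. Epithelial markers summed to 809, 1157, 901 and 873 and to 1449.8, 1229.5, 1168, 969 and 865 FPKM, 2 of 7 (*Krt7* and *Cldn7*) were higher and 0 lower, and *Krt18* was the most abundant. Of the marker calls, those of *Krt7*, *Cldn7* and *Kdr* were made in 10, 10 and 10 of the 20 alternatives and those of *Smtn* and *Myh11* in 9 and 11, and the other called markers kept theirs in 14 to 20.

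Endothelial markers summed to 286, 312, 302 and 304 FPKM in the controls and to 109.6, 238, 148, 193 and 189.7 FPKM in *Wnk1d/d*, with 4 of 5 lower and *Pecam1* the most abundant. Macrophage markers summed to 75.3, 93.2, 100.1 and 101 and to 184, 138, 160.2, 110.5 and 123 FPKM, with *Cd14*, the most abundant, as the 1 of 4 called, and higher. The other 3 went both ways, with log2 fold changes of 0.36 for *Cd68*, -0.24 for *Csf1r* and -0.32 for *Emr1*. Cells rich in ER were looked for by name. Plasma cell markers summed to 13.00, 41.03, 72.4 and 93.5 FPKM in the controls and to 44.5, 50.8, 32.1, 23.6 and 27.1 FPKM in *Wnk1d/d*; *Igj* was the most abundant, *Mzb1* was lower, and *Tnfrsf17*, *Pou2af1*, *Cd79a* and *Irf4* were below 1 FPKM in every library. Markers of the exocrine pancreas were at or near 0 (*Prss1* at 0, and *Cpa1*, *Cel* and *Ctrb1* below 1 FPKM in every library) except *Cela1*, which was higher, and summed to 8.72, 9.35, 6.70 and 8.27 and to 9.99, 10.4, 14.9, 15.99 and 15.9 FPKM. Of the liver markers 0 of 6 were called; their sum in *Wnk1d/d* was 28.1, 20.3, 18.3, 10.7 and 8.28 FPKM. Neutrophil markers summed to 1.10, 1.77, 2.50 and 4.15 and to 2.68, 1.66, 2.35, 5.68 and 1.77 FPKM, and the most abundant was *Csf3r* in *Wnk1f/f* and *S100a8* in *Wnk1d/d*.

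**Figure D5:**
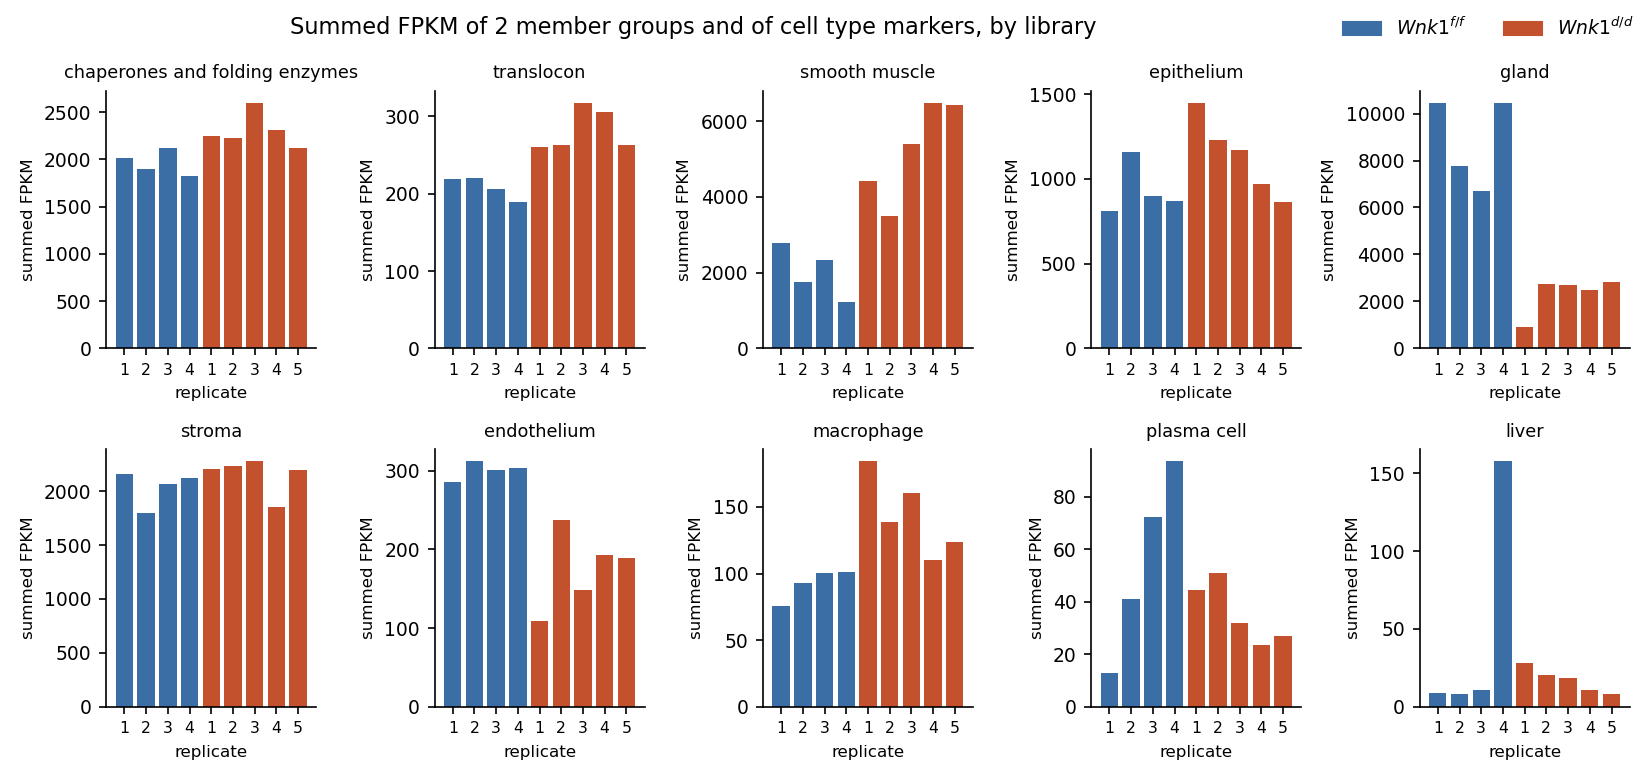
Summed FPKM (y axis) of the chaperones and folding enzymes, the translocon genes and 8 cell type marker lists in each library (x axis; blue, *Wnk1f/f* replicates 1 to 4; red, *Wnk1d/d* replicates 1 to 5). Smooth muscle sums are higher and gland and endothelial sums lower in all *Wnk1d/d* libraries, and the liver sum stands out in *Wnk1f/f* replicate 4.

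The values are of mRNA in whole uterus, and protein levels and activation of the 3 sensors were not analysed here. Most calls among the members lay close to the threshold and came and went with single libraries, while *Creb3l1* kept its call in every fit that was run.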

How the data were processed

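RNA-Seq of whole uterus was analysed from 4 *Wnk1f/f* and 5 *Wnk1d/d* mice, 1 library each, grouped by the genotype in the labels. The authors aligned paired-end reads to mm10 with TopHat2 2.0.4 and deposited FPKM values, computed with Cufflinks (2.0.2 in the submitters' processing notes); the annotation is not given in the sources used here, and the kit does not mark strand. Depth is unknown from FPKM, so no counting intervals are given. From the deposited FPKM, log2(FPKM + 1) of 14728 genes with a mean above 1 FPKM in at least 1 genotype was fitted without pairing by limma 3.58.1 (trend) in R 4.3.3, with Benjamini-Hochberg adjustment; the step was tested on simulated data. Cuffdiff, which the study used, needs reads and was not rerun. The two-sided exact permutation test used every split of the libraries (smallest p 0.0079); it, counts, promoter motifs and figures were made in Python 3.11.15 with NumPy 2.4.6, pandas 2.3.3 and matplotlib 3.10.9. Positions come from GENCODE M21 on mm10, matched by symbol.

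Members and gene lists were chosen with earlier results of these data known, and no list was given a test. Values in every library are given for *Wnk1*, for called members and for *Hspa5*, *Xbp1*, *Atf4*, *Atf6*, *Ddit3* and the 2 kinase sensors; from each further list, up to 3 called genes with the largest fold change are named. Alternatives were quantile normalization or median scaling; a filter at 5 FPKM or none; a pseudocount of 0.1 or 0.01; library weights, robust estimation, a block for replicate number, or no trend in limma; each library left out in turn; a fold criterion of 2; and, chosen after seeing the data, replicate 4 of both genotypes left out.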

Additional observations from a re-analysis of the deposited data

Results flagged for a closer look

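In groups of 4 or 5 libraries, a value was singled out when its gap to the nearest other library, divided by the range of the group, was above Dixon's 95% critical value; chance does this in about 1 of 20 groups, and here 13 of 144 groups held such a value. *Dnajb9* was low in *Wnk1f/f* replicate 2, at 21.4 FPKM with the nearest control at 30.2, and *Sec61a1* was low in *Wnk1f/f* replicate 3, at 96.6 FPKM with the nearest at 102.8. *Edem1* was high in *Wnk1d/d* replicate 3 at 19.6 FPKM, and the nearest library was at 16.9. *Wnk1d/d* replicate 2 was high for *Ern1*, at 29.3 FPKM against 15.4, and for *Creb3l2*, at 56.8 against 44.5. *Xbp1* was high in *Wnk1d/d* replicate 4, at 273.9 FPKM against 230.4.

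Among the genes named from the further lists, *Atf6b* and *Vcp* were low in *Wnk1f/f* replicate 4, at 30.9 and 32.8 FPKM, and *Slc7a11* was high in *Wnk1d/d* replicate 1, at 3.75 FPKM with the nearest library at 2.13. Among sums of marker lists, the gland sum was low in *Wnk1d/d* replicate 1 (916 FPKM, nearest 2499), the stromal sum was low (1858, nearest 2201) and the neutrophil sum high (5.68, nearest 2.68) in *Wnk1d/d* replicate 4, and the liver sum was high in *Wnk1f/f* replicate 4 (157.7, nearest 10.6).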

How the results depend on the processing

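The number of higher members, 10, was 4 with no filter, 5 with quantile normalization and 1 without replicate 4 of both genotypes, an alternative chosen after seeing the data; it was 3 to 9 when each library was left out in turn. With no filter 21949 genes were tested, and leaving out libraries leaves fewer samples; the cause of the change under quantile normalization was not tested. The number of lower members, 1, was 0 with no filter, without trend, with library weights, without both replicates 4, and 0 to 1 with each library left out. The number of DEGs, 1, was 0 at a fold criterion of 2 and 1 to 2 with each library left out.

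Called chaperones and folding enzymes, 3, were 0 with no filter, with quantile normalization and without both replicates 4, 1 with robust estimation and with library weights, and 0 to 2 with each library left out. XBP1/ATF6 targets, 3, were 1 with no filter, 0 without both replicates 4 and 1 to 2 with each library left out. ATF4 targets, 1, were 0 with no filter and without both replicates 4 and 0 to 1 with each library left out. Sensors and transcription factors, 1, were 2 with library weights and 1 to 2 with each library left out. Translocon genes, 3, were 0 without both replicates 4 and 1 to 3 with each library left out.

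Replicate numbers are shared by the genotypes but belong to different mice, and same-numbered libraries did not deviate together (correlations across genes -0.09, 0.00, 0.02 and -0.27). With the replicate block 1 member was higher and 0 lower, 0 genes were called in each group except the sensors and transcription factors, and over all genes tested 133 were higher and 87 lower. *Wnk1* had a log2 fold change of -0.52 (adjusted p = 0.052) in the paired fit and -0.57 to -0.50 in the other alternatives, where it stayed called (-0.55 to -0.50 with each library left out).

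*Hsp90b1*, *Pdia4*, *Pdia6* and *Sdf2l1* changed sign to -0.0606, -0.0414, -0.0828 and -0.0103 with quantile normalization, as did *Dnajb9* (-0.0205) and *Sdf2l1* (-0.0495) with library weights, *Sdf2l1* (-0.0533) and *Sel1l* (0.0029) without both replicates 4, and *Sel1l* (0.0081) with the replicate block. With each library left out, log2 fold changes ran from -0.084 to 0.0949 for *Dnajb9*, -0.13 to 0.16 for *Sdf2l1*, -0.13 to 0.0539 for *Creld2*, -0.0283 to 0.0278 for *Sel1l*, -0.10 to 0.0655 for *Chac1* and -0.0081 to 0.34 for *Ern1*. None of these genes was called in any fit. *Chac1* has no value with the filter at 5 FPKM. The counts of members were the same with a pseudocount of 0.1 and with median scaling.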
